A study of Homo sapiens with 8 samples.

Results

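The genes described here carry the cellular response to low oxygen and the conversion of glucose to lactate. They are 42 genes chosen by symbol, in 5 roles: oxygen sensors and subunits of the hypoxia-inducible factor (HIF), HIF targets outside glycolysis, glucose transporters, the glycolytic enzymes with lactate dehydrogenase, and kinases that steer glycolysis. Of these, 39 had a probe set that the platform annotation assigns to 1 gene, among 18132 genes measured in all. EGLN2 and SLC2A3 had only probe sets shared with another gene, and CA9 had none in the table used here, so these 3 were not analysed here.

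The cells were AGS, an established line from a human gastric adenocarcinoma, and their mRNA was read on 8 Affymetrix arrays. The labels give 4 arrays to control cells and 4 to cells exposed for 72 hours to 3.4 nM podofilox (podophyllotoxin), a plant compound that binds tubulin and stops microtubules from forming. Both groups were AGS cells in serum-supplemented medium, and the labels name no change of oxygen or glucose for either. Since the labels do not tell if control cells had the solvent or if arrays of a group were separate cultures, p-values reflect the spread between these arrays only, which may be technical.

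HIF is a transcription factor made of an alpha subunit, HIF-1 alpha or HIF-2 alpha, and the partner ARNT. With oxygen present, prolyl hydroxylases of the EGLN family mark the alpha subunit, the VHL protein recognises the mark, and the subunit is degraded, so HIF activity is set largely at the protein level and is not read directly from the mRNA of its subunits. Stabilised HIF raises genes of blood vessel growth, collagen modification and mitochondrial turnover, and in many cells also glucose uptake and most steps of glycolysis.

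Levels are the deposited log2 expression values, and differences are podofilox minus control on the log2 scale. Each gene was read from its brightest single-gene probe set, since an array often carries several probe sets for a gene. A gene counts as risen or fallen when limma's two-sided p, adjusted over all 18132 genes by Benjamini-Hochberg, was under 0.05. By this rule 14 of the 39 genes rose, 3 fell and 22 did not pass. Over all genes 8.55% rose and 12.5% fell, 21% in either direction. A fit of the 9066 genes above the median signal, which include 33 of the set, gave larger shares. There 16.3% of genes rose and 28.6% fell, beside 15 (45.5%) and 8 (24.2%) of the set. The values of the 4 podofilox arrays lay all above those of the 4 control arrays for 12 of the 39 genes and all below for 9, beside 10.6% and 15.6% of all genes (26.2% in either direction). Of the 39 genes, 3 (7.69%) were called with a change of at least 1.5-fold, against 0.739% of all genes. The set was chosen with earlier results of these data known, so its shares are not independent of that choice. The median difference was 0.05 over the 39 genes and 0.01 over all genes. In bulk RNA a change in the kinds of cells present and a change of mRNA per cell cannot be told apart.

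Of the 11 measured HIF targets outside glycolysis, 7 rose, 0 fell and 4 did not pass, with a median difference of 0.22. By limma at an unadjusted p under 0.05, 8 were higher and 0 lower, beside 15% and 18.4% of all genes. A plain test per gene without moderated variances called 6 higher and 0 lower, beside 7.14% and 11.4% of all genes. Each of the 7 that rose had its podofilox arrays entirely above its control arrays. Of the 22 measured glycolysis genes, 5 rose and 2 fell, with a median of -0.03, beside 8.55% and 12.5% of all genes called. The difference between these groups of genes was not tested.

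ANKRD37, an ankyrin repeat protein known as a HIF-1 target, rose most. Its control arrays read 6.51, 6.67, 6.61 and 6.40, in the order of their numbers, and its podofilox arrays 8.11, 7.90, 7.78 and 7.85. The lowest podofilox array thus lay more than 1 log2 unit above the highest control array. The difference was 1.36 (SE 0.08, adjusted p = 9.31e-06 by limma), or 2.57-fold. A further, very dim ANKRD37 probe set at 3.31 in control cells differed by 0.05 and did not pass, so the mean of both was a rise of 0.71 (adjusted p = 1.94e-05 by limma).

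The stretch before the start of ANKRD37 is shown because the core letters that HIF recognises, ACGTG or GCGTG, occur in it. It is the 250 bases before the RefSeq gene start on GRCh38.p14 (chr4:185396591-185396840, plus strand, outside the gene), with capitals marking these letters on either strand.
ANKRD37: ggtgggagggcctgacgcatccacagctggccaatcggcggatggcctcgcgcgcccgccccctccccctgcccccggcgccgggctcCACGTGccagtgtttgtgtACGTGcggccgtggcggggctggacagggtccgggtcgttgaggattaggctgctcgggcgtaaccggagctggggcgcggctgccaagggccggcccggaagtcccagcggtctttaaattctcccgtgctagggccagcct
The search found 3 matches, all of ACGTG. The first pair overlaps in a palindrome 162 bases before the start, read once on each strand, and the other match lies 143 bases before the start. Such short words are common. Of 14425 measured genes with a window of this length in the RefSeq table, 50.9% held at least 1 match, 21% held ACGTG and 39.5% held GCGTG. Of the 34 genes described here that had a window, 22 held a match (64.7%), among them 7 of 8 HIF targets outside glycolysis and 12 of 21 glycolysis genes. VHL, NDRG1, VEGFA, BNIP3L and PFKFB2 had no window in the table. A match describes the letters only.

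NDRG1, a stress-responsive gene long used as a marker of hypoxia, read 9.16, 9.29, 9.08 and 9.10 on the control arrays and 9.98, 10.05, 9.91 and 9.94 with podofilox. All podofilox arrays were higher than any control array. The difference was 0.81 (SE 0.06, adjusted p = 2.28e-05 by limma), or 1.76-fold. Its 6 probe sets all rose, by 0.80 to 0.93, so the size did not depend on the probe set read.

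The prolyl 4-hydroxylases P4HA1 and P4HA2 form the catalytic subunits that hydroxylate proline in collagen, and both rose. P4HA1 read 9.28, 9.37, 9.11 and 9.07 in control cells and 9.66, 9.77, 9.99 and 9.88 with podofilox, a difference of 0.62 (SE 0.085, adjusted p = 0.000789 by limma), or 1.53-fold. Arrays numbered 3 and 4 carried more of this rise (0.84) than arrays numbered 1 and 2 (0.39), and the rise passed in each of these subsets. P4HA2 rose by 0.22 (SE 0.05, adjusted p = 0.00737 by limma), from 11.02 to 11.10 in control cells to 11.21 to 11.35 with podofilox. Its rise passed in neither subset, at 0.29 with arrays 1 and 2 and 0.16 with arrays 3 and 4. Each of these genes has 1 single-gene probe set.

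KDM3A, a histone demethylase whose gene is a HIF target, went from a mean of 8.81 ± 0.07 to 9.11 ± 0.06 (SD, n = 4 each), a rise of 0.30 (SE 0.05, adjusted p = 0.00256 by limma), and its 3 probe sets all rose. BNIP3L, which marks mitochondria for removal by autophagy, went from 9.30 ± 0.05 to 9.52 ± 0.07 (SD, n = 4 each), a rise of 0.22 (SE 0.05, adjusted p = 0.0108 by limma). Its 6 probe sets rose by 0.22 to 0.23, but a pair of them gave identical means and spreads and is not separate evidence. Its relative BNIP3 was dim, at 4.52 ± 0.12 and 4.74 ± 0.16 (SD, n = 4 each), and the difference of 0.22 (95% interval 0.03 to 0.41) did not pass (adjusted p = 0.0955 by limma).

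VEGFA, the main growth factor for blood vessels, was called higher with little margin. It read 10.43, 10.45, 10.26 and 10.37 in control cells and 10.50, 10.57, 10.72 and 10.54 with podofilox, so the groups did not overlap but nearly touched. The difference was 0.20 (SE 0.06, adjusted p = 0.0375 by limma). Only 2 of its 10 probe sets passed, with differences from 0.03 to 0.20. Leaving out control array 1, 3 or 4 or podofilox array 2, 3 or 4 ended the call (differences over all 8 omissions 0.16 to 0.23, adjusted p up to 0.0917). Arrays 1 and 2 alone gave 0.10 and arrays 3 and 4 alone 0.31.

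The other 3 targets did not pass. ADM, the vasodilator peptide adrenomedullin, read 5.77 ± 0.06 and 5.85 ± 0.05 (SD, n = 4 each), a difference of 0.08 (95% interval -0.03 to 0.18). STC2, the secreted hormone stanniocalcin 2, differed by 0.01 at a control mean of 4.29, and MXRA5, an extracellular matrix protein, by 0.01 at 3.39. STC2, MXRA5 and BNIP3 had means under 5, and with no detection calls in the table such dim probe sets cannot be told from background.

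**Figure D1:**
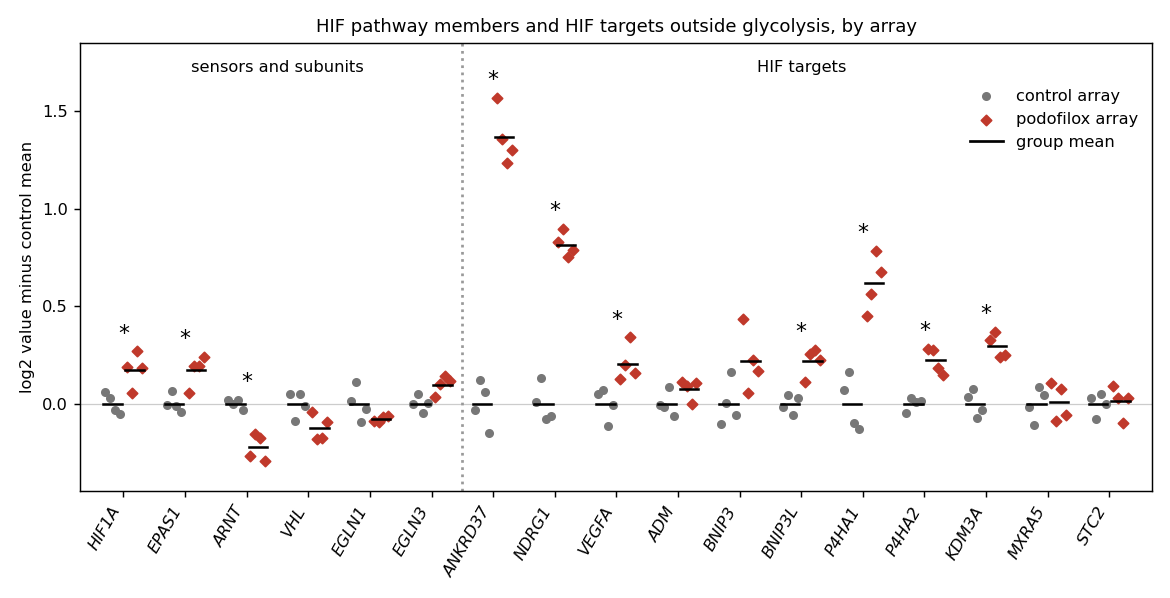
Log2 value of each array minus the gene's control mean, for 6 oxygen sensors and HIF subunits (left of the dotted line) and 11 HIF targets outside glycolysis. Grey circles are the 4 control arrays, red diamonds the 4 podofilox arrays, black bars the group means, and an asterisk marks genes past the test. ANKRD37, NDRG1 and P4HA1 stand apart, with rises of 1.36, 0.81 and 0.62.

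The sensors and subunits changed less and not in 1 direction. Of 6 measured, 2 rose, 1 fell and 3 did not pass, while 8.55% of all genes rose and 12.5% fell. The median difference of the 6 was 0.01. HIF1A, the gene of HIF-1 alpha, read 12.06, 12.02, 11.96 and 11.94 in control cells and 12.18, 12.05, 12.26 and 12.18 with podofilox, where array 2 lay within the control range. The difference was 0.17 (SE 0.05, adjusted p = 0.0448 by limma). Leaving out any 1 array other than podofilox array 2 ended the call (0.14 to 0.21 over all 8 omissions, adjusted p up to 0.125). The direction was shared by its 8 probe sets, at 0.16 to 0.25, of which 4 passed in a fit over all probe sets. Arrays 1 and 2 alone gave 0.08 and arrays 3 and 4 alone 0.27.

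EPAS1, the gene of HIF-2 alpha, differed by 0.17 as well (SE 0.05, adjusted p = 0.0385 by limma). It lay at 9.37 to 9.49 in control cells and at 9.47 to 9.66 with podofilox, so the groups overlapped. Its call ended without control array 1, 3 or 4 or podofilox array 2, 3 or 4 (0.15 to 0.21 over all 8 omissions, adjusted p up to 0.111), and its other probe set differed by 0.03. ARNT, the shared partner, read 7.96, 7.93, 7.95 and 7.90 in control cells and 7.67, 7.78, 7.76 and 7.64 with podofilox, all lower. It fell by 0.22 (SE 0.05, adjusted p = 0.00665 by limma) on an _s_at probe set, a kind that can match several transcripts, while its 4 other probe sets differed by -0.08 to 0.04 and did not pass. Averaging its 5 probe sets left -0.06 (adjusted p = 0.303 by limma).

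None of the 3 genes of the degradation step passed. VHL differed by -0.12 (95% interval -0.24 to -0.01, adjusted p = 0.12 by limma), EGLN1 by -0.08 (95% interval -0.19 to 0.03) and EGLN3, itself a known HIF target, by 0.10 (95% interval 0.0012 to 0.19). The 2 other probe sets of EGLN3 were at 0.12 and 0.35, and the mean over its probe sets passed (0.19, adjusted p = 0.0034), as did that of VHL (-0.13, adjusted p = 0.029). At an unadjusted p under 0.05, EGLN3 was higher and VHL lower, and the plain test called 0 of the 3.

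Glycolysis begins with glucose entry and phosphorylation. SLC2A1, the glucose transporter GLUT1, was bright in both groups, at 12.55 to 12.63 in control cells and 12.65 to 12.69 with podofilox. The groups did not overlap, yet the difference was 0.09 (SE 0.04, 95% interval 0.01 to 0.18) and did not pass (adjusted p = 0.126 by limma). The mean over its 4 probe sets did pass (0.17, adjusted p = 0.00875), with single differences up to 0.29 on the dimmest. SLC2A1 also passed among genes above the median signal, with intensity trend and robust estimation, with array weights and by the plain test.

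Both hexokinases, which add the first phosphate to glucose, rose by nearly the same amount. HK1 read 9.68, 9.74, 9.70 and 9.67 in control cells and 10.16, 10.15, 10.06 and 10.11 with podofilox. HK2, the form known as inducible by HIF, read 9.03, 8.99, 8.99 and 8.96 and then 9.50, 9.38, 9.37 and 9.45. Podofilox arrays were above control arrays throughout for both. The differences were 0.42 (SE 0.04, adjusted p = 0.000139 by limma) for HK1 and 0.43 (SE 0.04, adjusted p = 0.000179 by limma) for HK2, 1.34-fold and 1.35-fold. The 4 probe sets of HK1 and the 2 of HK2 all rose, by 0.33 to 0.44.

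Of the 14 enzymes after the hexokinases, 1 rose, 1 fell and 12 did not pass, while 8.55% of all genes rose and 12.5% fell. GPI, which isomerises glucose 6-phosphate, lay at 11.95 to 12.04 in control cells and 11.85 to 11.92 with podofilox, a difference of -0.11 (adjusted p = 0.0921 by limma). The phosphofructokinase genes PFKL, PFKM and PFKP, whose enzymes make the committed step, differed by -0.06, -0.15 and -0.11 and did not pass. The groups did not overlap for PFKM and PFKP.

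The 1 that rose was ALDOC, the aldolase form best known from brain. It read 9.76, 9.73, 9.77 and 9.73 in control cells and 10.13, 10.17, 10.04 and 10.10 with podofilox. The rise was 0.36 (SE 0.04, adjusted p = 0.000333 by limma), or 1.29-fold, and its 5 probe sets rose by 0.27 to 0.45. ALDOA, the main aldolase of most cells, differed by -0.02 (95% interval -0.11 to 0.08).

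TPI1, triosephosphate isomerase, was the 1 enzyme of the chain that fell. It read 12.24, 12.30, 12.25 and 12.26 in control cells and 12.07, 12.13, 12.11 and 12.10 with podofilox, so the groups were apart by more than their spread. The fall was small, at -0.16 (SE 0.04, adjusted p = 0.0144 by limma), and 2 of its 3 probe sets, all of the _x_at kind that can bind other transcripts, passed.

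The later enzymes did not pass. PGK1, which makes the first ATP of the pathway, differed by 0.03 (95% interval -0.08 to 0.14), and 0 of its 9 probe sets passed. PGAM1, a phosphoglycerate mutase, differed by -0.0027 (95% interval -0.09 to 0.08), the common enolase ENO1 by -0.09, ENO2, the neuronal enolase, by 0.10, and PKM, pyruvate kinase, by -0.08. GAPDH, the enzyme between TPI1 and PGK1 and not 1 of the 42 genes, differed by -0.06 (SE 0.04, adjusted p = 0.327 by limma) at a control level of 14.05. PKM was the only gene of the 39 with probe sets called in opposite directions, at -0.22 on a bright one and 0.58 on a dim one. The dim one had means of 4.43 in control cells and 5.01 with podofilox.

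LDHA, which makes lactate from pyruvate and is among the most cited HIF targets, read 13.30, 13.28, 13.28 and 13.27 in control cells and 13.25, 13.25, 13.22 and 13.26 with podofilox. Each podofilox array was lower, but by so little that the difference was -0.04 (95% interval -0.12 to 0.04, adjusted p = 0.532 by limma). LDHB, the heart-type form, differed by -0.13 (95% interval -0.22 to -0.03, adjusted p = 0.0685 by limma). LDHB passed when podofilox array 3 was left out (-0.15, adjusted p = 0.038).

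Of the 16 enzymes, 3 rose and 1 fell, beside 8.55% and 12.5% of all genes. The podofilox values were all below the control values for 7 and all above for 3, beside 15.6% and 10.6% of all genes. The count of falls changed with the variance settings. With limma's intensity trend and robust estimation, applied together, 7 of the 22 glycolysis genes (31.8%) were lower in place of 2, while the share of all genes called lower went from 12.5% to 15%. GPI, PFKM, PFKP, ENO1 and LDHB were then added to TPI1 and PFKFB3. The rises went from 5 to 6 of the 22 (27.3%) with SLC2A1 added, beside 9.56% of all genes. All of these differences apart from PFKFB3 were smaller than 0.17 in size. None of the 22 glycolysis genes had a mean under 5, whereas 4604 of all genes did. In the fit of genes above the median signal, 6 of 20 glycolysis genes (30%) were lower, beside 28.6% of all genes there.

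The windows before the start of ALDOC, LDHA and PGK1 are shown because they hold several of the HIF core letters while only ALDOC rose. Each is the 250 bases before the RefSeq start on GRCh38.p14, written along the gene, with capitals for ACGTG or GCGTG on either strand. They lie at chr17:28576896-28577145 (minus strand) for ALDOC, chr11:18394313-18394562 (plus strand) for LDHA and chrX:78103998-78104247 (plus strand) for PGK1.
ALDOC: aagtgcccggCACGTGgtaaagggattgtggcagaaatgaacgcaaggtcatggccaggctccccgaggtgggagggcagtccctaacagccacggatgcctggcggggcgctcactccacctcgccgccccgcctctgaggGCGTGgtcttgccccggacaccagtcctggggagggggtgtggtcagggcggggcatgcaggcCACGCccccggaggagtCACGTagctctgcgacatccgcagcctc
LDHA: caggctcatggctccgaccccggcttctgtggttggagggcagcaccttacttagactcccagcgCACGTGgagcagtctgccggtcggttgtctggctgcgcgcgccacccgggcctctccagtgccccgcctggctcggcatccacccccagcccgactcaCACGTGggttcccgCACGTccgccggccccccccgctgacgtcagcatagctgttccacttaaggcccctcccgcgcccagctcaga
PGK1: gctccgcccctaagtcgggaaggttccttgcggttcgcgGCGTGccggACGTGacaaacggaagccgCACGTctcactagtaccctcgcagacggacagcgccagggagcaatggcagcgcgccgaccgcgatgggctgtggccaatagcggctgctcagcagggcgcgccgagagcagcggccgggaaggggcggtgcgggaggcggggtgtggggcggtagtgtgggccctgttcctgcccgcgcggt
ALDOC held 5 matches, LDHA 5 and PGK1 3, with palindromes counted on both strands. LDHA thus held as many as ALDOC, beside differences of -0.04 and 0.36. HK2 held 3 matches and HK1 and TPI1 held 0. By call, 9 of 11 genes that rose, 12 of 20 that did not pass and 1 of 3 that fell held a match, beside 50.9% of all measured genes.

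Of the 5 kinases that steer glycolysis, 2 rose, 1 fell and 2 did not pass, while 8.55% of all genes rose and 12.5% fell. The PFKFB enzymes make and break fructose 2,6-bisphosphate, the strongest activator of phosphofructokinase. PFKFB3 read 9.71, 9.87, 9.71 and 9.78 in control cells and 9.29, 9.31, 9.22 and 9.16 with podofilox, all lower. The difference was -0.52 (SE 0.05, adjusted p = 0.000171 by limma), a level 1.44-fold lower. That value comes from an _s_at probe set. Another _s_at probe set fell by 0.23, while the brightest remaining one was at -0.05 (adjusted p = 0.554 when _x_at and _s_at ones are dropped) and an _x_at one at -0.13, neither past the test. The mean over the 4 was -0.23 (adjusted p = 0.00298).

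PFKFB4 went the other way. It read 8.25, 8.26, 8.16 and 8.24 in control cells and 8.54, 8.58, 8.39 and 8.48 with podofilox, a rise of 0.27 (SE 0.05, adjusted p = 0.00441 by limma), and 3 of its 4 probe sets passed. PFKFB2, known from the heart, differed by 0.05 on its brightest probe set, while its 5 dimmer ones were at -0.23 to -0.05, and 2 of those fell.

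PDK kinases switch off pyruvate dehydrogenase and so limit the use of pyruvate in the mitochondria. PDK1, the classic HIF target of the family, differed by -0.06 (95% interval -0.18 to 0.06). PDK3 lay at 8.59 to 8.75 in control cells and 8.71 to 8.95 with podofilox, with overlap. It was called higher at 0.19 (SE 0.06, adjusted p = 0.0448 by limma). The call ended without control array 1, 3 or 4 or podofilox array 1, 2 or 4 (0.15 to 0.23 over all 8 omissions, adjusted p up to 0.111).

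**Figure D2:**
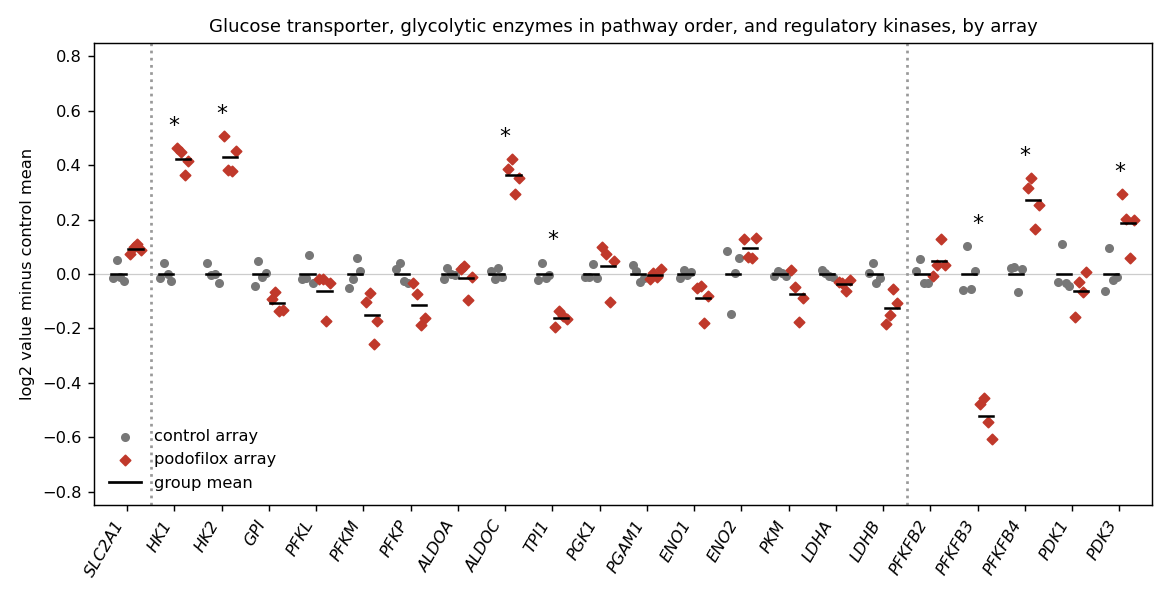
Log2 value of each array minus the gene's control mean, for the glucose transporter SLC2A1, 16 glycolytic enzymes in pathway order and 5 regulatory kinases, separated by dotted lines. Grey circles are control arrays, red diamonds podofilox arrays, black bars group means, and an asterisk marks genes past the test. HK1, HK2 and ALDOC rose by 0.42, 0.43 and 0.36, PFKFB3 was at -0.52, and the podofilox means of the other enzymes lay within 0.17 of their control means.

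Related genes were also compared within an array, as the difference of their log2 values, in all 15 pairs of close relatives among the 39 genes. In each pair the gene with the higher difference was put first, so the sign of a shift is set by that order. On their brightest probe sets, the log2 ratio of PFKFB4 to PFKFB3 shifted by 0.79 (SE 0.05), while the means over probe sets were 0.24 for PFKFB4 and -0.23 for PFKFB3. ALDOC against ALDOA shifted by 0.38 (SE 0.02), P4HA1 against P4HA2 by 0.40 (SE 0.12) and PDK3 against PDK1 by 0.25 (SE 0.07). The groups did not overlap in these 4 pairs. The same held for EGLN3 against EGLN1 (0.17), PFKL against PFKM (0.09), ENO2 against ENO1 (0.18) and PFKFB2 against PFKFB3 (0.57). As means over probe sets, however, PFKFB2 was at -0.12 beside -0.23 for PFKFB3. Each of these 8 of the 15 pairs had p = 0.0286 in a two-sided exact permutation test, the lowest p possible with 70 arrangements. After Benjamini-Hochberg adjustment over the 15 pairs this becomes an exact permutation p = 0.0536, so no pair passed. Since the permutation test can give no lower p with so few arrays, a pair alone could not pass this adjustment whatever its shift. The adjusted values therefore do not decide if a pair shifted. HK2 against HK1 shifted by 0.0083 (SE 0.03) and HIF1A against EPAS1 by 0.0026 (SE 0.07), with overlapping groups.

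Every single-gene probe set was also read. The 39 genes had 131 probe sets, of which 42 were called higher and 8 lower. Over all 44988 single-gene probe sets 18% were called, 7.83% higher and 10.2% lower. Probe sets of 1 gene share its RNA and are not independent, and 30 of the genes had several. In 17 of those 30 the called probe sets went 1 way only, and in 1, PKM, both ways.

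**Figure D3:**
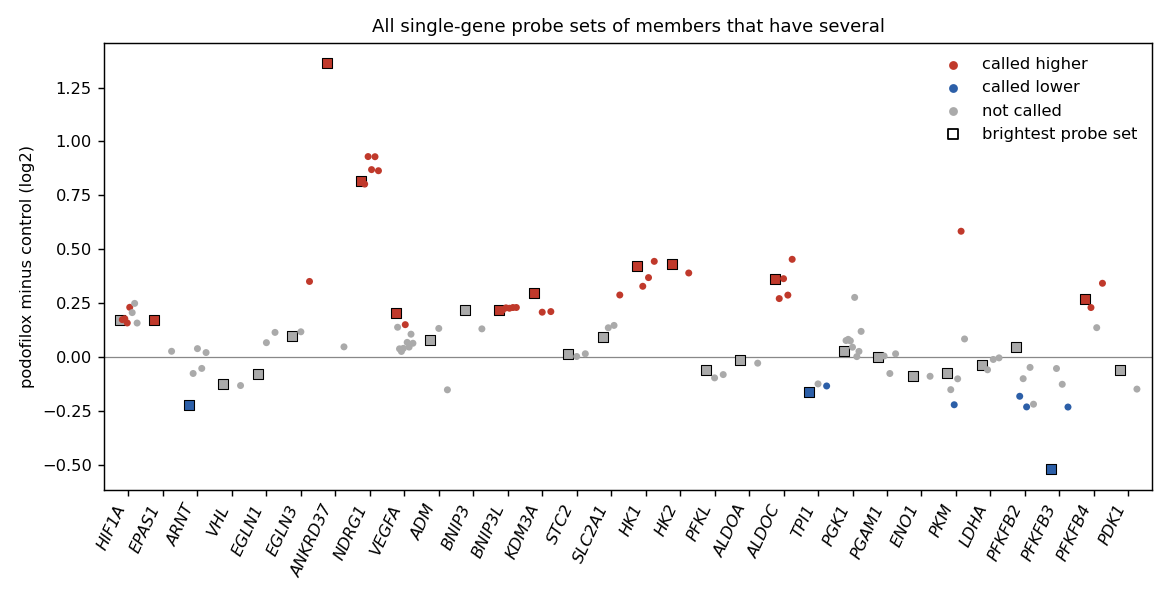
Difference, podofilox minus control (log2), of each single-gene probe set for the 30 genes with several, ordered within a gene from bright to dim. Squares mark the brightest probe set, and colours give the call over all probe sets (red higher, blue lower, grey not called). NDRG1, BNIP3L, KDM3A, HK1, HK2 and ALDOC were called higher on each probe set, whereas VEGFA and ANKRD37 were not.

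Genes of the same pathways outside the 42 were read from lists of textbook members, also chosen with earlier results of these data known. Of 36 other HIF targets, 9 rose and 4 fell, with a median of 0.07, against 8.55% and 12.5% of all genes. DDIT4, which restrains the growth kinase mTORC1, rose by 0.92 (SE 0.05), INSIG2, which restrains sterol synthesis, by 0.46 (SE 0.05), the transcription factor BHLHE40 by 0.44 (SE 0.05) and MXI1, an antagonist of MYC, by 0.30 (SE 0.04). DDIT4 is also a gene of the amino acid stress response. The 4 that fell, named after their values were seen, were GYS1, glycogen synthase (-0.27, SE 0.04), the zinc finger gene ZNF395 (-0.22, SE 0.05), SAP30, a subunit of a histone deacetylase complex (-0.15, SE 0.05), and the histone demethylase KDM4C (-0.14, SE 0.04). The 3 probe sets of GYS1 all fell, whereas no other probe set of ZNF395, SAP30 or KDM4C passed. The remaining 23 did not pass.

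Of 13 other components of the HIF pathway, 2 rose and 3 fell, beside 8.55% and 12.5% of all genes. CREBBP and EP300, the coactivators that HIF recruits, fell by 0.41 (SE 0.05) and 0.32 (SE 0.06). CREBBP was read from an _s_at probe set, and dropping that kind left -0.20 (adjusted p = 0.0132 by limma). CITED2, which competes with HIF for them, rose by 0.25 (SE 0.06), and its 2 probe sets both passed. WSB1, a ubiquitin ligase subunit, differed by -0.19 (SE 0.05), a call that ended without control array 1 or 3 (-0.17 and -0.18, adjusted p up to 0.0566 by limma). That is an _s_at probe set too, and with _x_at and _s_at ones dropped WSB1 was at -0.48 (adjusted p = 0.000497).

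Of 16 other genes of glycolysis and lactate transport, 2 rose and 3 fell, beside 8.55% and 12.5% of all genes. HKDC1, a further hexokinase, rose by 0.22 (SE 0.04). The phosphoglucomutase PGM2 was at 0.18, PGM1 at -0.14 and the muscle enolase ENO3 at -0.18, and these calls were fragile. PGM2 lost its call without control array 1 or 4 or podofilox array 2 or 4 (0.15 to 0.20 over all 8 omissions, adjusted p up to 0.0623 by limma). ENO3 lost it without control array 1, 3 or 4 or podofilox array 1, 2 or 3 (-0.21 to -0.15, adjusted p up to 0.104), and PGM1 without any 1 of the 8 (-0.16 to -0.12, adjusted p up to 0.116).

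Around pyruvate dehydrogenase, 1 of 11 genes rose and 3 fell, beside 8.55% and 12.5% of all genes. PDP1, the phosphatase that switches the complex on, rose by 0.45 (SE 0.08), and its 3 probe sets all rose. PDPR, which restrains that phosphatase, differed by -0.27 (SE 0.05), or -0.20 (adjusted p = 0.0783 by limma) when _x_at and _s_at probe sets are dropped, while the subunit genes DLD and PDHB were at -0.18 and -0.17. DLD lost its call without control array 4 (-0.18, adjusted p = 0.0516 by limma). PDHB lost it without control array 2, 3 or 4 or podofilox array 1, 3 or 4 (-0.19 to -0.15 over all 8 omissions, adjusted p up to 0.0971).

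In the pentose phosphate pathway, which branches off after the hexokinase step, TKT, transketolase, rose by 0.28 (SE 0.04), or 0.47 as the mean over its probe sets, and PGD, a dehydrogenase of that pathway, fell by 0.24 (SE 0.05), while the other 5 of 7 did not pass. That is 1 risen and 1 fallen of 7, beside 8.55% and 12.5% of all genes. Among 5 genes of the network that senses glucose phosphates, 2 rose and 1 fell, beside the same shares of all genes. TXNIP, which limits glucose uptake, rose by 0.62 (SE 0.05, adjusted p = 3.36e-05 by limma). Its mean went from 11.17 ± 0.06 to 11.78 ± 0.04 (SD, n = 4 each), and its 5 probe sets all rose. Its relative ARRDC4 rose by 0.37 (SE 0.07), and MLXIP, a transcription factor of the network, differed by -0.20 (SE 0.05) with -0.04 (adjusted p = 0.537) when its probe sets are averaged.

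**Figure D4:**
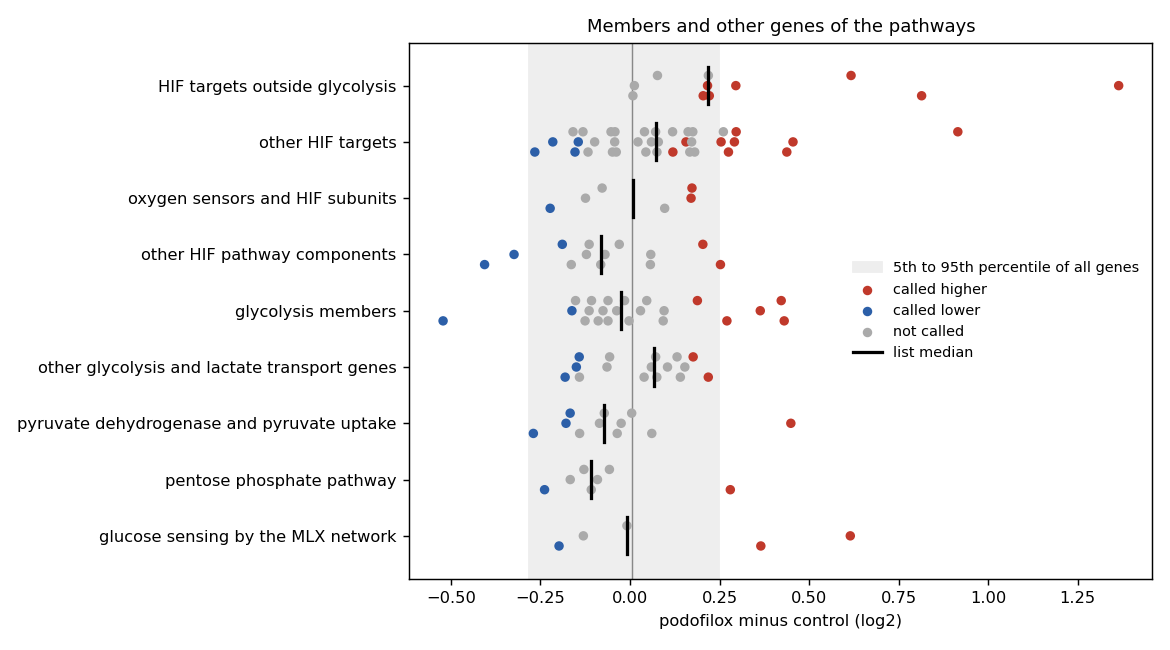
Difference, podofilox minus control (log2), of each gene in 3 groups of the genes described here and 6 lists of other genes of the same pathways, with 1 point per gene and vertical offsets for legibility only. Colours give the call (red higher, blue lower, grey not called), black bars are list medians, and the shaded band spans -0.28 to 0.25, the 5th to 95th percentile of all genes. The HIF targets outside glycolysis have a median of 0.22 and the glycolysis genes -0.03.

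Across genes, which are not independent replicates, correlations between arrays ran from 0.997 to 0.999 within a group and from 0.995 to 0.997 between groups. The keratin genes KRT8, KRT18 and KRT19 stood above 13 in both groups while the gastric markers GKN1 and CLDN18 were under 5. Of the 10 epithelial and gastric markers measured 2 rose, the gastric genes TFF1 by 1.08 (SE 0.07) and ANXA10 by 0.49 (SE 0.09), and 0 fell. The list's mean level was 8.75 to 8.83 in control cells and 8.98 to 9.01 with podofilox. Of 8 fibroblast markers 6 were under 5, and the list's mean was 4.40 to 4.59 in control cells and 4.46 to 4.61 with podofilox. By limma 0 of them were called (1 higher and 1 lower at an unadjusted p under 0.05, 0 by the plain test). The immune list, where LYZ alone was bright, had a mean of 6.09 to 6.23 in control cells and 6.19 to 6.25 with podofilox with 1 gene higher. The endothelial list lay at 5.42 to 5.72 and 5.46 to 5.59 with 1 gene lower. Beside these counts, 8.55% of all genes rose and 12.5% fell. The part of these markers in the differences above was not tested.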

How the data were processed

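Biotin-labelled RNA was hybridised to 1-colour Affymetrix arrays, 1 per sample, 4 per group. The log2 expression values that the authors deposited were made with RMA, per the submitters' processing notes, which corrects background, equalises array distributions and summarises probes. Its software is not given in the sources used here. Values ran from 2.64 to 15.0, as on a log2 scale. The number of arrays limits the precision, and no detection calls were used.

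Of 49395 probe sets, 44988 had 1 gene, 1832 several and 2473 none, and 102 were manufacturer controls. The Entrez identifiers of 44961 were found in RefSeq's table of GRCh38.p14. The single-gene probe set brightest on average stood for its gene. The model had group as its term (lmFit and eBayes of limma 3.58.1, R 4.3.3) and was tested on simulated data. Exact permutation tests of gene pairs used scipy 1.17.1 under Python 3.11.15, and plots matplotlib 3.10.9.

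The genes and lists were chosen with earlier results of these data known. The text names all genes of the set, up to 4 genes past the test with the smallest p of each other pathway list, GAPDH, TXNIP, and markers. Outside this rule it names the 4 other HIF targets that fell, after their values were seen, but not all 9 that rose. Promoter windows came from RefSeq. The alternatives were a filter on dim genes, normalization again, variance models, the replicate number or array subset as a block, arrays 1 and 2 or 3 and 4 only, other probe set rules and each array left out.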

Additional observations from a re-analysis of the deposited data

Results flagged for a closer look

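Among 78 groups of 4 arrays, 1 per gene and treatment, 5 had an array far from the other 3 by Dixon's criterion, where chance alone gives about 1 in 20. For PFKL, control array 3 read 8.96 against at most 8.87 on the other control arrays, and podofilox array 3 read 8.72 against at least 8.86. Control array 3 was also high for PGK1, at 12.86 against 12.80 to 12.81, and low for PFKFB4, at 8.16 against 8.24 to 8.26. For PDK1, control array 2 read 6.78 against at most 6.65 on the others.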

How the results depend on the processing

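Each of the 17 called genes kept its direction under the up to 20 alternative fits. ANKRD37, NDRG1, P4HA1, HK1, HK2 and ALDOC, 6 in all, also kept their call in each of them, and 11 lost it in at least 1. Over all genes 1550 rose and 2260 fell. These counts were 468 and 542 with arrays 1 and 2 only and 905 and 1395 with arrays 3 and 4 only, which have fewer samples, and 2406 rose with array weights. The 14 genes of the set that rose became 7 with arrays 1 and 2 only, where 3 HIF targets were called higher, and 3 glycolysis genes were higher with arrays 3 and 4 only. The 3 falls of the set became 8 of 33 among genes above the median signal, 8 with an intensity trend and robust estimation together, 6 with array weights, 5 with the plain test, 5 with the mean of probe sets, and 1 with arrays 1 and 2 only, with arrays 3 and 4 only and, of 31 genes, without _x_at and _s_at probe sets. For glycolysis genes the 2 falls became 6 of 20, 7, 4, 4, 4, 1, 1 and, of 16, 1 in the same order. The share of all tested genes that fell, 12.5% in the report, was 28.6%, 15%, 15.8%, 11.4%, 12.4%, 2.99%, 7.69% and 11.4% in that order, beside 24.2% of the set and 30% of its glycolysis genes above the median signal.

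With the replicate number as a block, 1116 genes rose and 1625 fell, as did 10 and 2 of the set, of which 4 and 1 were glycolysis genes. HIF1A, EPAS1, VEGFA, TPI1 and PDK3 lost their calls. Deviations of arrays with the same number correlated at -0.24 to 0.09 and those with different numbers at -0.15 to 0.24. These ranges overlap, and whether the numbers pair the samples was not tested.

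Differences that changed sign were all of genes not past the test, apart from ARNT, where probe sets 2 and 4 of the others, by brightness, gave 0.038 and 0.020. With the mean of probe sets EGLN1 was at 0.034, PKM at 0.019 and PFKFB2 at -0.12. With arrays 3 and 4 only, MXRA5 was at -0.0572, STC2 at -0.0589, PGK1 at -0.0388, PGAM1 at 0.0264 and PDK1 at 0.0094. With arrays 1 and 2 only, ALDOA was at 0.0222 and PFKFB2 at -0.0204. Quantile normalization again gave -0.0086 for MXRA5 and -0.0183 for STC2, median centring 0.0053 for PGAM1, and array weights -0.0582 for MXRA5, 0.0072 for ALDOA and 0.0082 for PGAM1. On leaving out 1 array MXRA5 ranged from -0.029 to 0.0415, STC2 from -0.0144 to 0.05, ALDOA from -0.0301 to 0.0118 and PGAM1 from -0.0131 to 0.0087. Other probe sets gave 0.0658 and 0.11 for EGLN1, -0.15 for ADM, 0.0040 and 0.0142 for PGAM1, 0.58 and 0.083 for PKM, and -0.18, -0.10, -0.23, -0.049 and -0.22 for PFKFB2. The causes were not tested.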
